A study of Mus musculus with 22 samples.

Results

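Late neutrophil granule and S100 genes were followed in sorted bone marrow stem and precursor cells of mice with and without ARID1A, a DNA-binding subunit of the BAF (SWI/SNF) chromatin remodeling complex. The group held 10 genes of the 47311 to which transcripts in the files could be assigned: Fcnb, Lcn2, Camp, Ngp, Ltf, Chil3, Mmp8, Cd177, S100a8 and S100a9. They were chosen by name, together with the measured level of Fcnb, which was known to be much higher in knockout granulocyte-monocyte progenitors (GMP). For that reason the comparison of knockout with wild type in GMP is given here as a description, without a test. The other populations are separate libraries that the choice did not name, although the precursor populations came from mice of the same numbers. Earlier results of these data were known when the genes were chosen.

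Neutrophils make their granules in sequence as they mature. Primary (azurophil) granules, loaded with myeloperoxidase and serine proteases, are made at the promyelocyte stage, and secondary (specific) and tertiary (gelatinase) granules follow at the myelocyte and metamyelocyte stages. Lactoferrin (Ltf), lipocalin-2 (Lcn2), cathelicidin (Camp) and neutrophilic granule protein (Ngp) are secondary granule proteins, Mmp8 is the neutrophil collagenase, and Cd177 is a surface and granule glycoprotein of neutrophils. S100a8 and S100a9 form the calcium-binding heterodimer calprotectin, which fills the cytosol of mature neutrophils. Ficolin B (Fcnb), a lectin that recognizes microbial sugars, and the chitinase-like protein Chil3 (Ym1) are expressed by immature myeloid cells of mouse bone marrow. In progenitors such as the ones sorted here, these transcripts are usually scarce.

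Knockout mice (KO) were Arid1a f/f;Mx1-Cre+ and wild-type mice (WT) were Arid1a f/f;Mx1-Cre- littermates, all of strain C57BL/6 per the labels, so that the controls carried the floxed exon 9 too. Both genotypes received 5 doses of 300 µg poly(I:C) on alternate days at 8 to 14 weeks of age, and cells were sorted 4 weeks later. The Mx1 promoter responds to interferon and is not limited to blood cells, and both genotypes had been exposed to the inducing agent. Libraries were made from common myeloid progenitors (CMP, CD34+ FcγRII/III lo), GMP (CD34+ FcγRII/III hi) and megakaryocyte-erythroid progenitors (MEP, CD34- FcγRII/III-) of 3 WT mice, numbered 300, 305 and 309, and 3 KO mice, numbered 301, 304 and 308, each mouse giving all 3 populations, and from long-term stem cells (LT-HSC, CD34- Flt3- within Lin- Sca1+ Kit+ cells) of WT mice S245 and S269 and KO mice S244 and S270, with another library kit. The labels do not say that these numbers are mice: the number in each sample title was taken as a mouse number here. Because CD34 and FcγRII/III defined the gates, a shift in their surface levels could change which cells a gate held. The paper reports lower surface CD34 on KO than on control CMP and GMP. The part of such a shift in the results was not tested.

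Each of the 22 libraries held between 40804031 and 65930737 estimated counts on genes. Arid1a itself served to check the labels, although deletion of 1 exon need not remove the transcript: its level was lower in KO than in WT GMP (42.9 to 46.5 against 57.7 to 78.3 TPM, a length-corrected share of all transcripts) and LT-HSC (10.7 and 10.9 against 23.7 and 29.9 TPM), and the fitted log2 change was -0.22 (SE 0.06) in CMP and -0.14 (SE 0.05) in MEP. Summed Y-linked transcripts were 0.69 to 1.78 TPM in the libraries of KO mouse 304 and WT mouse 305, and 83.4 TPM or more in those of the other 4 precursor mice, so results are also given without these 2 mice where that mattered. The X-linked transcript Xist ranged from 0.159 to 203 TPM in WT CMP. It was at most 0.239 TPM in KO CMP, 0.172 TPM in KO GMP and 0.115 TPM in KO MEP. KO mouse 304 was thus low in Y-linked transcripts and in Xist, so these 2 mice are not shown to be alike. The reason was not tested. TPM is a share of each library and shifts when abundant genes change: the median gene was 0.10 log2 higher in KO than WT CMP 0.16 lower in KO than WT GMP, 0.023 higher in KO than WT MEP and 0.41 lower in KO than WT LT-HSC on that scale. Fold changes below come from edgeR with TMM scaling, which removed this shift in the precursors and left a median log2 change of -0.16 in LT-HSC, and a call means an adjusted p (false discovery rate, FDR) under 0.1. In LT-HSC, WT mouse S245 stood apart, with 2.78 TPM of Mpo against 276 to 407 TPM in the other 3 libraries.

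All 10 genes are protein-coding (GRCm38). Ltf (chr9:111019271-111042767, + strand), Ngp (chr9:110419747-110423012, +), Camp (chr9:109847379-109849617, -) and Mmp8 (chr9:7558456-7568485, +) lie on chromosome 9. Fcnb (chr2:28076378-28084885, -) and Lcn2 (chr2:32384633-32388252, -) are on chromosome 2, S100a8 (chr3:90668978-90670035, +), S100a9 (chr3:90692632-90695721, -) and Chil3 (chr3:106147554-106167564, -) on chromosome 3, and Cd177 (chr7:24743983-24760311, -) on chromosome 7. For 8 of the 10 genes, no stretch of 31 bases, the word length used in read assignment, was shared with another annotated gene. Chil3 shared 41.5% of its words with other genes, mostly Chil4, and Cd177 6.93%, so their values are less certain, although Chil4 itself was at most 0.0606 TPM in the precursor libraries.

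The start regions of the genes that parted most in KO GMP are shown because these genes, grouped here in 1 list, moved in different directions. The 250 bases before the RefSeq start of each gene (GRCm38.p6, read in the direction of transcription) follow, with matches to the C/EBP-type motif TTGCNNAA on either strand in capitals.
Fcnb, chr2:28084879-28085128, - strand: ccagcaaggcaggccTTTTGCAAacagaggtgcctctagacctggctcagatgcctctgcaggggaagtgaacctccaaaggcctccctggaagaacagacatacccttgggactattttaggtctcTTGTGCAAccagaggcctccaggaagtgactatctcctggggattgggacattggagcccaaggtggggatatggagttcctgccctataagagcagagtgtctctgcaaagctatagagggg
Lcn2, chr2:32387740-32387989, - strand: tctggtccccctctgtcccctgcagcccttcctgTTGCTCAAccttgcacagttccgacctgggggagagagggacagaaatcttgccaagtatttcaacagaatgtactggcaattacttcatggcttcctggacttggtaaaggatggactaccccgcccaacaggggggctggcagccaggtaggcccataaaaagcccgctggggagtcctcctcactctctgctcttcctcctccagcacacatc
Ltf, chr9:111019042-111019291, + strand: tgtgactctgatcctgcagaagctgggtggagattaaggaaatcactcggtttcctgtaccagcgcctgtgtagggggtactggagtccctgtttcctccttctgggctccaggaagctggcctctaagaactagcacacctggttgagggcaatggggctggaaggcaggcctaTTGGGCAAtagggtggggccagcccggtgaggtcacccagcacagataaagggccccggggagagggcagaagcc
The motif occurred in this window in 6 of the 10 genes (Fcnb, Lcn2, Ltf, Mmp8, Ngp and S100a9) and in 9.56% of all 32851 start regions. Fcnb, the gene that was highest in KO GMP, held 2 matches, and Ltf, which was lower in KO cells, also held a match, so the presence of these letters did not separate the genes by direction. A PU.1-type motif, GAGGAAGT on either strand, occurred in Mmp8 and S100a8, and in 2.44% of all start regions.

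In WT precursors the 10 genes were expressed at low to moderate levels, and only 3 of them were higher in GMP than in CMP. On the TPM scale, which is per length, the order in WT GMP ran from S100a8 (mean 109 ± 30.5 TPM, SD, n = 3) and S100a9 (76.8 ± 58.7) through Lcn2 (20.1 ± 8.3), Fcnb (16.7 ± 3.55), Ngp (13.9 ± 11.4), Camp (9.0 ± 8.78), Ltf (5.63 ± 3.85) and Chil3 (3.96 ± 3.1) down to Mmp8 (1.72 ± 0.462) and Cd177 (1.10 ± 0.492). Most neighbors in this order were closer to each other than the spread between the mice. Mouse 300 had the highest WT value for 9 of the 10 genes in CMP, for 9 in GMP and for all 10 in MEP. The largest gap to mouse 305 was 22.8 times, for Fcnb in MEP, where mouse 305 held 1 count. The next was 7.69 times, for Camp in GMP. The cause of the high values of mouse 300 was not tested.

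**Figure D1:**
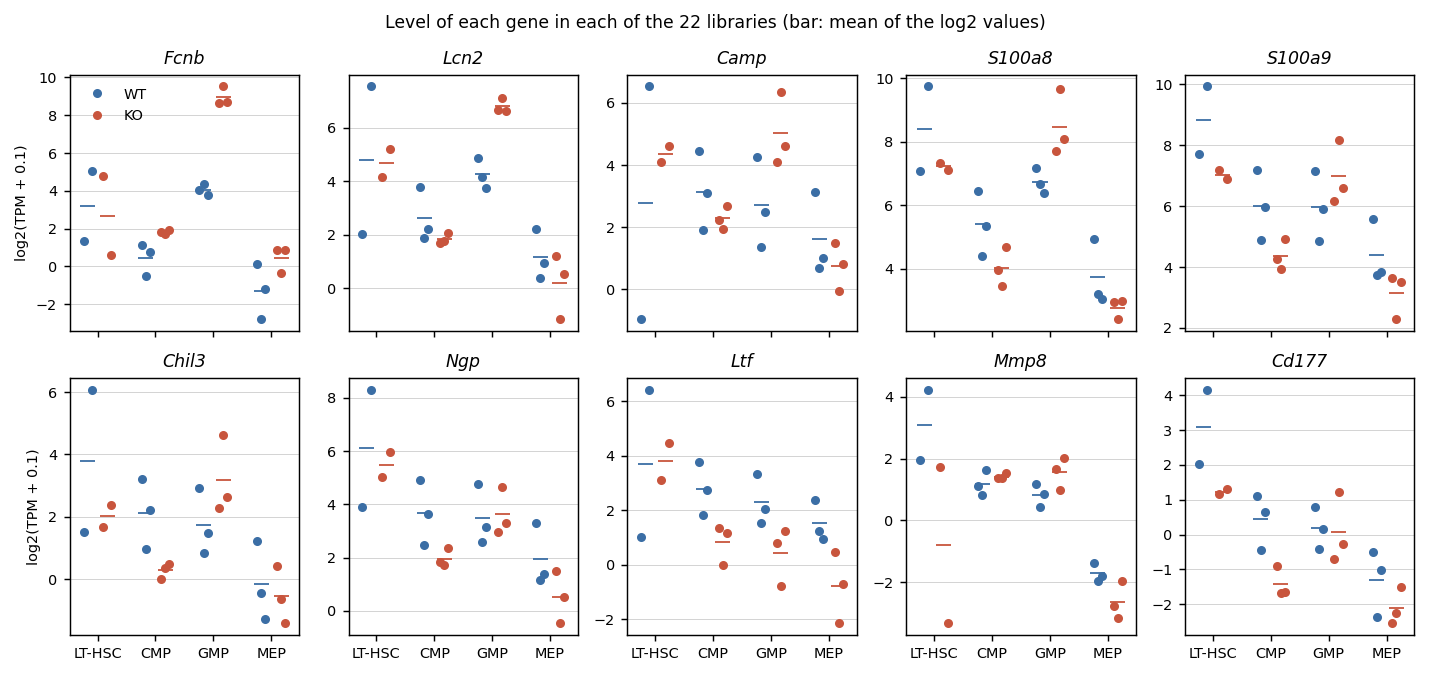
Level of each of the 10 genes in each of the 22 libraries, as log2(TPM + 0.1) on the vertical axis against the sorted population on the horizontal axis, with WT in blue, KO in red and a bar at the mean of the log2 values. Fcnb, Lcn2 and S100a8 in KO GMP lie above every WT GMP library, Ltf in KO lies below WT in CMP, GMP and MEP, and the 2 WT LT-HSC libraries are far apart.

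Compared within the same WT mice (mouse as a block), Fcnb was higher in GMP than in CMP by 3.77 on the log2 scale (SE 0.49, adjusted p = 0.000396), Lcn2 by 1.81 (SE 0.23, adjusted p = 0.000304) and S100a8 by 1.49 (SE 0.29, adjusted p = 0.0037), by edgeR's quasi-likelihood test. These were 3 of 10 genes called higher and 0 called lower, while 19.9% of all genes tested were higher and 24% were lower, and 3 of the 10 genes had an unadjusted p under 0.05. The other 7 lay between -0.36 (Chil3) and 0.10 (S100a9) and did not pass. The order of WT levels therefore differed between the populations: in WT CMP, S100a9 (79.5 ± 60.3 TPM) and S100a8 (49.7 ± 34.1) led, Ngp, Camp and Ltf followed, and Fcnb (1.44 ± 0.777) was among the lowest. Against WT MEP, 9 of the 10 genes were called higher in WT CMP (37.1% of all genes were), from 1.15 for Lcn2 (SE 0.25) to 3.07 for Mmp8 (SE 0.26), 0 were lower (33.5% of all genes were), and Fcnb narrowly missed the threshold (1.24, SE 0.61, adjusted p = 0.10). Without the mouse as a block only 4 of the 10 passed.

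In KO GMP, the contrast that drew attention to the list, the genes divided. Fcnb, Lcn2 and S100a8 lay above every WT library, Camp, Chil3, S100a9 and Mmp8 had higher means but overlapping libraries, Ngp and Cd177 were at about the WT mean, and Ltf lay below every WT library. The following values are descriptions only, since this contrast was used in choosing the genes.

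Fcnb was 16.1, 20.5 and 13.5 TPM in WT GMP of mice 300, 305 and 309, and 396, 741 and 417 TPM in KO GMP of mice 301, 304 and 308. The groups were far apart, the counts behind them being 482 to 633 in WT and 14305 to 27070 in KO, and the fitted log2 difference was 5.15 (SE 0.28). Fcnb thereby passed from the fourth to the first place among the 10 genes, with a mean of 518 ± 194 TPM (SD, n = 3). Over all libraries, 83.1% of its counts were assigned to 1 of its 3 transcripts.

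Lcn2, which binds bacterial siderophores, was 29.4, 17.6 and 13.4 TPM in WT GMP and 103, 140 and 98.8 TPM in KO GMP, a log2 difference of 2.66 (SE 0.27). Its KO libraries lay close together, and all were more than 3 times the highest WT value. S100a8 was 143, 102 and 83.2 TPM in WT and 209, 804 and 272 TPM in KO (2.15, SE 0.48), so that the groups did not overlap but mouse 304 stood far above the other KO mice. S100a9, whose protein pairs with that of S100a8, was 142, 28.8 and 59.4 TPM in WT and 72.6, 291 and 96.9 TPM in KO (1.17, SE 0.62). Here WT mouse 300 lay above 2 of the 3 KO libraries.

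Camp, the only mouse cathelicidin, was 19, 2.47 and 5.56 TPM in WT GMP and 17, 82.1 and 24.6 TPM in KO GMP (2.36, SE 0.76). Chil3 was 7.49, 1.68 and 2.71 TPM in WT and 4.76, 24.7 and 6.1 TPM in KO (1.77, SE 0.68). For both, WT mouse 300 reached into the KO range, and KO mouse 304 was 3 or more times the other KO mice. Mmp8 was 2.19, 1.27 and 1.7 TPM in WT and 3.1, 1.89 and 3.94 TPM in KO (0.93, SE 0.29). Its groups overlapped in TPM through mouse 304 but not after TMM scaling. Ngp (27, 5.87 and 8.88 TPM in WT, 7.72, 24.9 and 9.82 in KO) and Cd177 (1.63, 0.656 and 1.01 TPM in WT, 0.512, 2.22 and 0.725 in KO) overlapped almost fully, with log2 differences of 0.20 (SE 0.59) and 0.06 (SE 0.51).

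Ltf, the iron-binding protein taken as the defining marker of secondary granules, went the other way. It was 10, 2.8 and 4.07 TPM in WT GMP and 1.65, 0.491 and 2.29 TPM in KO GMP (-2.11, SE 0.61), every KO library lying below every WT library. Mouse 304, which had the highest KO GMP value for 8 of the 10 genes, had the lowest for Ltf.

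By the threshold used for the other populations, 6 of the 10 genes would be called higher and 1 lower in KO GMP, beside 17.5% and 16.3% of all genes tested. No weight is placed on these counts. In TPM, 3 genes lay wholly above (9.92% of all genes) and 1 wholly below WT (30.8% of all genes), and after TMM scaling 4 lay above (20.6%) and 1 below (19.3%). Leaving out KO mouse 304 lowered the log2 difference of S100a9 from 1.17 to 0.28, of Chil3 from 1.77 to 0.68, of Camp from 2.36 to 1.34 and of S100a8 from 2.15 to 1.28, and turned those of Ngp and Cd177 negative (-0.53 and -0.69), whereas Fcnb stayed at 4.77 and Lcn2 at 2.45. Without both mouse 304 and WT mouse 300, also added after the values were seen, Fcnb was 4.75, Lcn2 2.81, Camp 2.48, S100a8 1.5 and Ltf -0.87. Over all alternatives Fcnb remained between 4.75 and 5.32 and Lcn2 between 2.35 and 3.02. In bulk libraries, more cells of a type and more RNA per cell cannot be told apart.

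**Figure D2:**
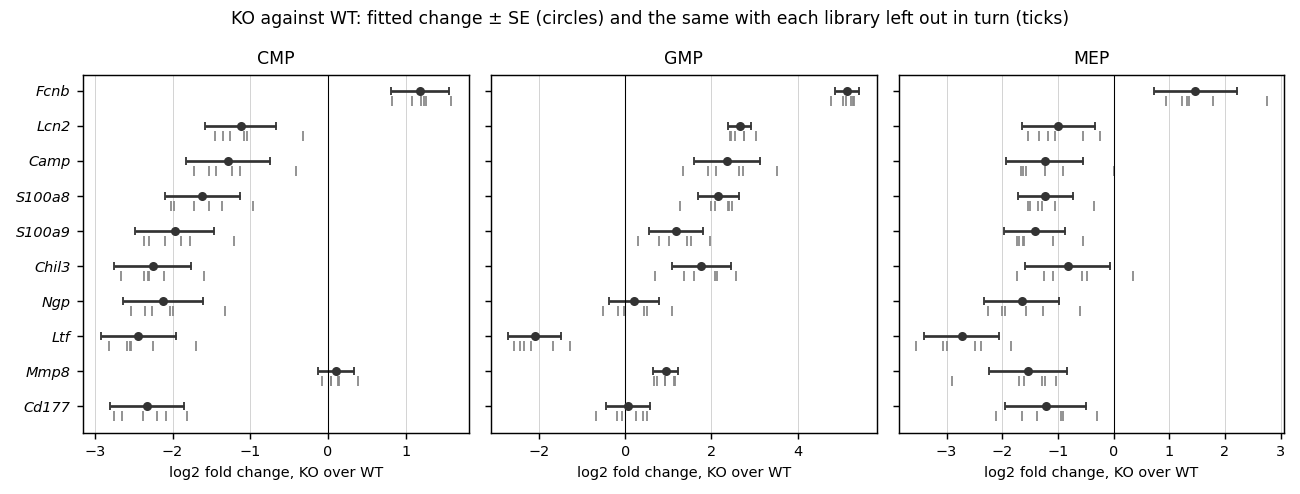
Fitted log2 fold change of KO over WT (horizontal axis) for the 10 genes in CMP, GMP and MEP; circles with bars are the change ± SE of 3 KO against 3 WT libraries, and gray ticks are the same fit with each library left out in turn. In GMP, Fcnb lies near 5 and Ltf near -2, while in CMP and MEP all genes but Fcnb and, in CMP, Mmp8 lie below 0.

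In KO CMP most of the genes were lower than in WT and Fcnb was higher. Of the 10 genes, 6 passed the test as lower (Ltf, Cd177, Chil3, Ngp, S100a9 and S100a8) and 1 as higher (Fcnb), against 12.8% and 10.6% of the 17214 genes tested. The median log2 change of the 10 was -1.80, beside -0.0027 for all genes.

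Ltf was 13.6, 3.43 and 6.56 TPM in WT CMP of mice 300, 305 and 309 and 2.44, 0.891 and 2.15 TPM in KO CMP of mice 301, 304 and 308. No libraries overlapped, and the log2 change was -2.44 (SE 0.49, adjusted p = 0.0088, edgeR). Cd177 was 2.06, 0.638 and 1.46 TPM in WT and 0.431, 0.211 and 0.221 TPM in KO (-2.33, SE 0.47, adjusted p = 0.010), and Chil3 was 9.18, 1.84 and 4.52 TPM in WT and 0.901, 1.19 and 1.3 TPM in KO (-2.26, SE 0.50, adjusted p = 0.014). Ngp, a cystatin-like granule protein, was 29.8, 5.52 and 12.4 TPM in WT and 3.47, 3.17 and 5.01 TPM in KO (-2.12, SE 0.52, adjusted p = 0.023). In all 4 genes the KO mice lay below the lowest WT mouse, which was mouse 305 each time.

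S100a9 was 147, 29.6 and 62.3 TPM in WT CMP and 19.2, 15.2 and 30.3 TPM in KO CMP (-1.97, SE 0.51, adjusted p = 0.028). S100a8 was 87.4, 21.1 and 40.7 TPM in WT and 15.3, 10.8 and 25.6 TPM in KO (-1.62, SE 0.48, adjusted p = 0.051). For both chains of calprotectin, KO mouse 308 lay above WT mouse 305 in TPM.

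Fcnb was 2.12, 0.596 and 1.61 TPM in WT CMP and 3.49, 3.17 and 3.76 TPM in KO CMP (1.18, SE 0.37, adjusted p = 0.062), without overlap, from counts of 24 to 82 in WT and 99 to 128 in KO. Lcn2 (-1.13, SE 0.45, adjusted p = 0.13) and Camp (-1.29, SE 0.54, adjusted p = 0.15) did not pass. Mmp8 was 2.06, 1.67 and 3 TPM in WT and 2.49, 2.48 and 2.77 TPM in KO, with a log2 change of 0.10 (SE 0.23, adjusted p = 0.84). It was the only one of the 10 whose mean in KO CMP lay within 1.5 times that in WT.

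In TPM, 4 of the 10 genes (Ltf, Ngp, Chil3 and Cd177) lay wholly below WT, as did 10.6% of all genes, and Fcnb lay wholly above, as did 25.7%. The sizes in CMP depended on WT mouse 300: without it the log2 change of Ltf was -1.70, of Chil3 -1.60, of Ngp -1.32, of S100a9 -1.22 and of S100a8 -0.96, the last no longer past the threshold, while Fcnb rose to 1.59. The call for Fcnb was lost without KO mouse 301, KO mouse 308 or WT mouse 309, that for S100a8 without KO mouse 301 or 304, and that for S100a9 without KO mouse 301. Calls for Ltf, Chil3, Ngp and Cd177 held with each library left out, and they were the 4 lower calls left without mice 304 and 300, an alternative added after the values were seen.

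In MEP the levels were lower than in CMP, and 1 of the 10 genes passed as changed in KO. With WT and KO mice of adjacent numbers taken as pairs, which the labels do not state, 6 passed as lower and 1 as higher. Ltf was 5.18, 2.26 and 1.86 TPM in WT MEP and 1.29, 0.128 and 0.512 TPM in KO MEP, with no overlap (-2.73, SE 0.67, adjusted p = 0.022, edgeR), so Ltf was the gene that passed in both populations outside the chosen contrast. In MEP 15.4% of all genes were called lower and 14% higher, and 4 of the 10 had an unadjusted p under 0.05. S100a9 (48.2, 13.2 and 14.2 TPM in WT, 12.3, 4.75 and 11.4 TPM in KO) and S100a8 (30.4, 9.16 and 8.08 TPM in WT, 7.59, 5.15 and 7.75 TPM in KO) also lay wholly below WT, with log2 changes of -1.42 (SE 0.55, adjusted p = 0.11) and -1.23 (SE 0.50, adjusted p = 0.12). They were 2 of 4 genes wholly below WT in TPM, as were 15.8% of all genes, and none lay wholly above, as did 18.5%. With WT mouse 305 left out, 6 of the 10 passed as lower, and with KO mouse 308 or WT mouse 309 left out 2 did.

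Fcnb was 0.984, 0.0432 and 0.335 TPM in WT MEP and 1.75, 0.687 and 1.71 TPM in KO MEP, from 1 to 72 counts, and its log2 change of 1.47 (SE 0.74, adjusted p = 0.21) did not pass. Ngp was -1.65 (SE 0.67), Mmp8 -1.54 (SE 0.70), Camp -1.24 (SE 0.69), Cd177 -1.22 (SE 0.72), Lcn2 -0.99 (SE 0.66) and Chil3 -0.83 (SE 0.76), none of which passed. WT mouse 300 carried much of these differences: without it Fcnb was 2.75 and passed, Camp was -0.0013, Chil3 turned to 0.34 and Ltf, at -1.84, still passed. Without mice 304 and 300 Ltf was -1.48 and no longer passed.

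Whether the KO effect differed between CMP and MEP was tested directly, with the mouse as a block. None of the 10 genes passed, compared with 13.1% of all genes, although 1 (Mmp8) had an unadjusted p under 0.05. The interaction with GMP was not tested, because the GMP contrast was used in the choice.

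In LT-HSC the genes could not be compared firmly. WT mouse S269 held far more of every gene than WT mouse S245: Camp was 92.9 against 0.411 TPM, Lcn2 188 against 3.95 TPM, Ltf 85.9 against 1.92 TPM and S100a8 863 against 135 TPM. The KO libraries of mice S244 and S270 mostly lay between them, at 17.1 and 24.2 TPM for Camp, 17.8 and 37 TPM for Lcn2, 8.54 and 22.4 TPM for Ltf and 162 and 137 TPM for S100a8. Fcnb was 2.44 and 33.1 TPM in WT and 27 and 1.44 TPM in KO, thus high in 1 library of each genotype.

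Of the 10 genes, 0 passed in LT-HSC by edgeR (0.0792% of all genes did), 4 had an unadjusted p under 0.05, and DESeq2 called 1, S100a9, among 248 called of all genes. S100a9, Mmp8 and Cd177 lay below WT in both KO libraries in TPM, as did 27.6% of all genes, and none lay above in both (9.02% of all genes did), with log2 changes of -2.11 (SE 0.58) for S100a9, -2.73 (SE 1.43) for Mmp8 and -2.10 (SE 0.71) for Cd177. After TMM scaling Mmp8 overlapped in LT-HSC, as it did in MEP. Mmp8 was listed at 0 in KO mouse S270. Without WT mouse S269 the log2 change was 5.96 for Camp, 4.18 for Ltf and 3.17 for Lcn2. In that fit S100a9 (-0.42), Mmp8 (-0.93) and Cd177 (-0.26) stayed negative. Without WT mouse S245 it was -2.07 for Camp, -2.38 for Ltf and -2.67 for Lcn2. The direction of Camp, Ltf and Lcn2 thus rested on which WT library was kept. Each of these fits leaves 1 WT library, whose spread is taken from the KO libraries.

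Proportions between the genes were compared within libraries. Within 1 library, the ratio of S100a8 to S100a9 does not depend on depth or scaling. In CMP it was 0.596, 0.711 and 0.653 in WT mice 300, 305 and 309 and 0.799, 0.712 and 0.845 in KO mice 301, 304 and 308, so that the highest WT and the lowest KO ratio were almost equal. In MEP it lay between 0.569 and 0.694 in WT and between 0.62 and 1.09 in KO, with overlap, and the LT-HSC ratios were 0.639 and 0.878 for WT against 1.12 and 1.16 for KO. In GMP, WT mice 300, 305 and 309 had ratios of 1.01, 3.55 and 1.4 and KO mice had 2.88, 2.77 and 2.80. The 3 KO GMP libraries thus agreed closely on a ratio of 2.82 ± 0.056 (SD), although their S100a8 levels were nearly 4 times apart, whereas the WT libraries spread over more than 3 times, with mouse 305 above the KO mice.

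The ratio of Fcnb to Ltf, a pair picked after the values were seen, was 0.156 to 0.246 in WT CMP and 1.43 to 3.56 in KO CMP. In MEP it was 0.0191 to 0.19 in WT and 1.36 to 5.37 in KO, and in GMP 1.61 to 7.31 in WT and 182 to 1510 in KO. The genotypes did not overlap in any of the 3 precursor populations, and no test was made on this ratio. In LT-HSC the WT ratios of 0.385 and 1.27 lay between the KO ratios of 0.0643 and 3.16.

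**Figure D3:**
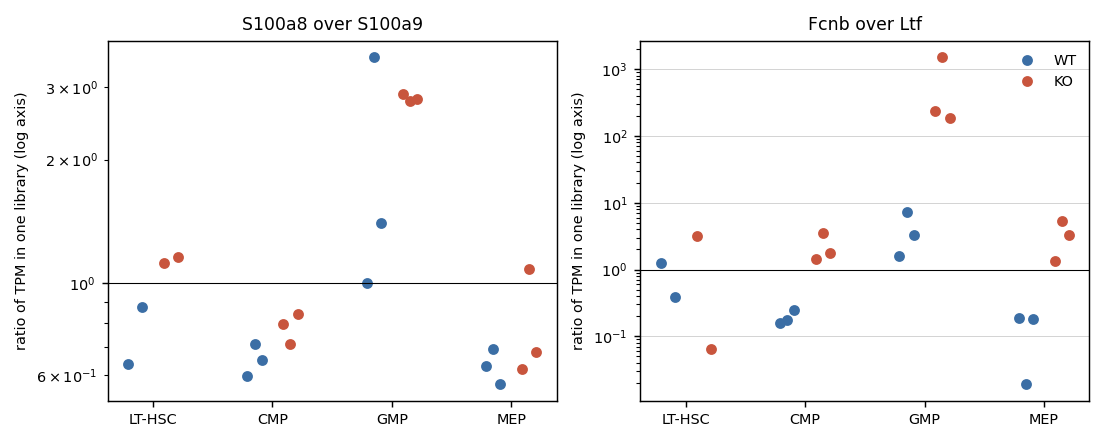
Ratio of S100a8 to S100a9 (left) and of Fcnb to Ltf (right) within each library, on a log axis, by population, with WT in blue and KO in red. The KO GMP points for S100a8 over S100a9 lie between 2.77 and 2.88, and for Fcnb over Ltf the KO points lie above the WT points in CMP, GMP and MEP.

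With the sample numbers taken as mice, each mouse gave all precursor populations, and the step from CMP to GMP can be read within a mouse. In WT mice the GMP level of Fcnb was 7.59 to 34.4 times its CMP level, and in KO mice 111 to 234 times. For Lcn2 the step was 2.18 to 4.94 times in WT and 24 to 42.7 times in KO, for S100a8 1.64 to 4.85 and 10.6 to 74.3, for Camp 0.658 to 0.872 and 3.71 to 21.8, and for Chil3 0.6 to 0.913 and 4.69 to 20.7. For Ngp it was 0.716 to 1.06 in WT and 1.96 to 7.87 in KO, and for S100a9 0.953 to 0.972 in WT and 3.2 to 19.1 in KO, and for Cd177 0.695 to 1.03 in WT and 1.19 to 10.6 in KO. Ltf had a step of 0.62 to 0.817 in WT and 0.551 to 1.06 in KO, and Mmp8 0.567 to 1.06 in WT and 0.76 to 1.42 in KO. The WT and KO ranges of Ltf and Mmp8 overlapped. These steps contain the GMP values used in the choice and are given without a test.

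**Figure D4:**
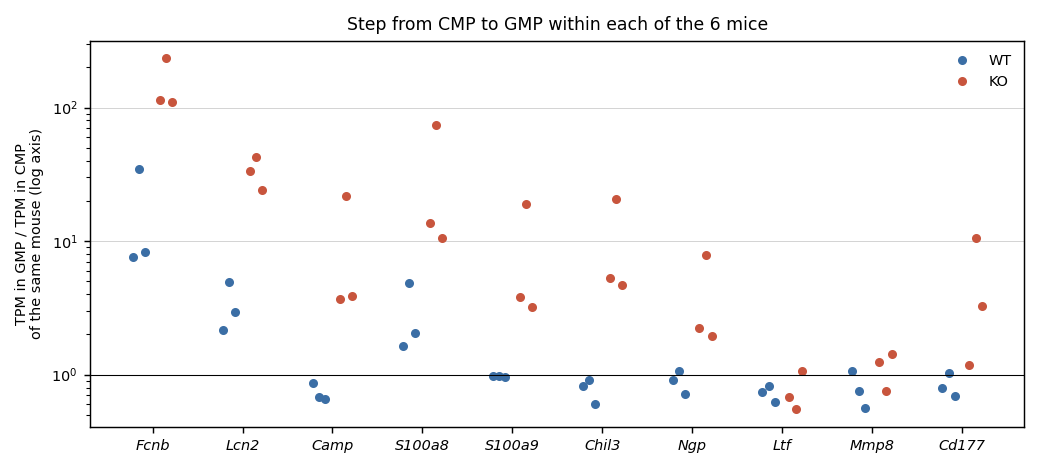
TPM in GMP divided by TPM in CMP of the same mouse, on a log axis, for the 10 genes in the 3 WT mice (blue) and the 3 KO mice (red). The WT points of 7 genes lie near 1, the KO points of Fcnb lie between 111 and 234, and the points of Ltf and Mmp8 overlap between genotypes.

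Over the 18 precursor libraries, the 5 genes with the log2 profile most like that of Fcnb, among 13178 genes with a mean above 1 TPM, were Glrx, Lair1, Atg7, Rab20 and Phyh, with Pearson's r between 0.965 and 0.973. For the mean profile of the 10 genes they were Stxbp2, Rsu1, Gpr157, S100a1 and Zfp687 (r between 0.932 and 0.937). Among the 10 genes themselves, r was 0.97 for Lcn2 and S100a8, 0.97 for Ngp and S100a9, 0.95 for Camp and S100a9, and -0.04 for Fcnb and Ltf. Within the 9 WT libraries alone, Ltf followed Ngp (r = 0.99), Camp (0.99) and S100a9 (0.98), and Fcnb followed Lcn2 (0.95) and S100a8 (0.92). The points share mice, populations and, for the full set, genotypes, so that these values only describe the libraries.

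The genes of neighboring stages were examined from lists to place these values, and the lists were drawn up with earlier results of these data known. The counts below stand beside the shares of all genes. In CMP 10.6% were higher and 12.8% lower, in GMP 17.5% were higher and 16.3% lower, and in MEP 14% were higher and 15.4% lower. Of 18 other secondary and tertiary granule genes, 14 were tested in CMP, where 1 rose and 6 fell in KO, and 11 in MEP, where 1 rose, below the share of all genes, and 3 fell. Cd63, a granule membrane protein, fell in both, from 135 to 28.8 TPM on average in CMP (-2.33, SE 0.14, adjusted p = 4.03e-05) and from 35.3 to 2.98 TPM in MEP (-3.57, SE 0.35, adjusted p = 0.000322). Slpi, a protease inhibitor, fell in CMP (-1.93, SE 0.24, adjusted p = 0.000888), and Adam8 rose in CMP (1.31, SE 0.18, adjusted p = 0.0017) and MEP (1.10, SE 0.33, adjusted p = 0.046). In GMP, as a description, 9 of 16 were past the threshold as higher and 2 as lower, led by Itgb2l (3.29), the haptoglobin gene Hp (2.32, from 235 to 1052 TPM) and Cybb (1.71), a subunit of the NADPH oxidase.

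The stefin A cluster, cysteine protease inhibitors of which several are abundant in mouse neutrophils, was almost silent in WT. Stfa1 was listed at 0 in all 9 WT precursor libraries, and in KO it was 1.5, 1.84 and 4.68 TPM in CMP, 10.3, 26.6 and 12.5 TPM in GMP and 1.59, 1.15 and 0.276 TPM in MEP of mice 301, 304 and 308. It entered the CMP fit only through its KO libraries, so no test of it is given. BC100530 was also at 0 in every WT precursor library and between 0.219 and 5.33 TPM in every KO one, the counts being 3.83 to 89. Stfa1 shared 46.7% of its 31-base words with other genes and BC100530 47.1%, mostly within the cluster, so counts could be split among them. The sum over 9 genes of the cluster was 0.0115 to 1.66 TPM in WT and 1.93 to 36.4 TPM in KO precursors.

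Of 22 genes of neutrophil maturation, 17 were tested in CMP, where 2 rose and 8 fell, and 11 in MEP, where 0 rose and 3 fell. Padi4, which citrullinates histones, fell in CMP from 17.4 to 1.89 TPM (-3.37, SE 0.25, adjusted p = 7.42e-05), and Retnlg, a resistin-like gene of mature neutrophils, fell in CMP (-2.24, SE 0.37, adjusted p = 0.0035) and MEP (-1.62, SE 0.47, adjusted p = 0.041). Itgam, which encodes CD11b, rose in CMP from 8.12 to 33.6 TPM (1.92, SE 0.16, adjusted p = 0.000146). In GMP 11 of 17 were higher and 3 lower by the same threshold, with Itgam at 2.96, Wfdc21 at 2.95 and Padi4 at -2.58.

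Primary granules are made before the secondary granules that hold Ltf, Lcn2, Camp and Ngp. Of 11 primary granule genes tested, 7 fell in CMP and 4 fell in MEP, while 7 did not pass in MEP, and 0 rose in either. Ctsg fell in CMP from 623 to 142 TPM (-2.23, SE 0.13, adjusted p = 3.74e-05), Mpo from 2757 to 1135 TPM (-1.38, SE 0.17, adjusted p = 0.000837) and Cst7 by 1.04 (SE 0.23, adjusted p = 0.014). In MEP, Cst7 (-1.82, SE 0.32, adjusted p = 0.0051) and Ctsc (-1.01, SE 0.15, adjusted p = 0.0024) fell. In GMP 8 of 11 were higher and 0 lower, at most by 1.09 for Ms4a3, so these differences were smaller than those of Fcnb, Lcn2 and S100a8.

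Of 16 regulators of granulocyte development, 9 fell and 0 rose in CMP, and 2 rose and 2 fell of 13 tested in MEP, which is close to the share of all genes. In CMP Cebpb fell from 8.03 to 3.53 TPM (-1.28, SE 0.26, adjusted p = 0.011), Irf8 from 179 to 71.9 TPM (-1.45, SE 0.28, adjusted p = 0.0078) and Klf4 from 2.63 to 0.211 TPM (-3.65, SE 0.63, adjusted p = 0.0043). In MEP Cebpd rose (0.84, SE 0.25, adjusted p = 0.043). In GMP 8 were higher and 7 lower, with Rxra at -2.28, Irf8 at -1.37 and Cebpd, which encodes a C/EBP factor, at 1.21 (43.5 to 89.9 TPM). Cebpe, the C/EBP factor of secondary granule genes, was 120 to 134 TPM in WT and 154 to 188 TPM in KO GMP. Cebpa, another C/EBP factor, went the other way, at 158 to 170 TPM in WT and 108 to 115 TPM in KO GMP. In CMP Cebpa was 69.4 to 70.7 TPM in WT and 34.6 to 48.3 TPM in KO. Both Cebpe and Cebpa were singled out after their values were seen.

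Of 14 other S100 genes, 7 were tested in each precursor population, and 2 rose and 2 fell in CMP and likewise in MEP, S100a6 rising in both (1.43, SE 0.14, adjusted p = 0.000318, and 2.09, SE 0.52, adjusted p = 0.023), S100a1 falling in CMP (-0.49, SE 0.09, adjusted p = 0.0061) and S100a11 falling in MEP (-0.89, SE 0.17, adjusted p = 0.0084). In GMP 3 of 7 were higher and 1 lower, the 3 within 0.47 to 0.58. Of 13 receptors and binding partners, 2 of the 11 tested rose and 4 fell in CMP, and 1 of 10 rose and 3 fell in MEP. Timp2, an inhibitor of matrix metalloproteinases, fell in CMP (-1.11, SE 0.18, adjusted p = 0.0031) and MEP (-3.44, SE 0.40, adjusted p = 0.000768), and Lrp1, a receptor that takes up lactoferrin, fell in CMP (-1.42, SE 0.17, adjusted p = 0.000633). In GMP 2 of 11 were higher and 6 lower, among them Tlr4, a receptor for calprotectin, at 0.98, and Slc22a17, a receptor for lipocalin-2, at -1.52. Of 10 paralogs, 4 were tested in CMP, where 1 rose and 1 fell, the latter being transferrin (Trf, -0.71, SE 0.06, adjusted p = 0.000168), and in MEP 1 of 2 rose, Mmp12 (0.97, SE 0.16, adjusted p = 0.0042). 

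Markers of other cells moved as well, and their part in these results was not tested. Ly6g, which defines mature neutrophils, was at most 0.863 TPM in WT and 0.202 TPM in KO precursors, a level near the floor. Retnlg was 14.6 to 16.9 TPM in WT and 1.7 to 3.39 TPM in KO GMP. Mmp9 was 0.85 to 2.41 TPM in WT and 0.348 to 0.687 TPM in KO GMP. Their lists as wholes went mostly the other way in GMP, with 11 higher and 3 lower of 17 maturation genes. Of 16 other secondary and tertiary granule genes, 9 were higher and 2 lower. Basophil and mast cell markers summed to 968 to 1454 TPM in WT GMP and 256 to 305 TPM in KO GMP (6 of 8 tested lower), and eosinophil markers to 4428 to 10118 TPM in WT and 1270 to 2517 TPM in KO GMP (7 of 9 lower), and no gene of either list was at 0 in every GMP library of a genotype. Monocyte markers summed to 1630 to 1915 TPM in WT and 1219 to 1499 TPM in KO GMP, where 4 of 12 were higher (Adgre1 at 3.37 and Cx3cr1 at 1.85 on the log2 scale) and 5 lower. In CMP, where most of the 10 granule and S100 genes were lower, 4 monocyte markers fell (among them F13a1 at -4.52, Klf4 at -3.65 and Ly6c2 at -2.86) and 2 rose, and their sum was 480 to 809 TPM in WT and 447 to 573 TPM in KO. Basophil and mast cell markers fell in 5 of 8 and rose in 1 in CMP, with sums of 507 to 753 TPM in WT and 408 to 436 TPM in KO. In CMP, erythroid markers summed to 1388 to 1576 TPM in WT and 2532 to 2962 TPM in KO, and 11 of 12 rose. Of the gated genes, Cd34 was 272 to 291 TPM in WT and 140 to 221 TPM in KO GMP, and Fcgr3 259 to 284 and 218 to 272 TPM. T and NK cell markers, whose sum was almost all Nkg7, summed to 649 to 864 TPM in WT and 949 to 1109 TPM in KO GMP (1 of 6 tested higher) and fell in 3 of 6 in CMP. B cell markers summed to 80.1 to 116 TPM in WT and 87.7 to 100.1 TPM in KO GMP (0 of 8 past the threshold), and in CMP 1 rose and 1 fell. Megakaryocyte markers, of which 5 of 8 fell and 1 rose in CMP, summed to 112 to 230.1 TPM in WT and 74.8 to 94.7 TPM in KO GMP, and of 12 stem cell markers 3 rose and 2 fell in CMP.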

How the data were processed

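Per the labels and the study's methods, RNA was sequenced from 22 libraries, with TruSeq kits for CMP, GMP and MEP and SMART-Seq v4 for LT-HSC. The authors assigned reads to Ensembl 84 transcripts (mm10) with kallisto 0.43.1. The deposited files give, for each of 115088 transcripts, an estimated count, an effective length and a TPM value, the length-corrected share of each transcript among all transcripts. Values of all transcripts of a gene were summed, which used the 114200 transcripts (99.2%) that could be paired with a gene name. Gene sums of estimated counts were rounded.

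KO and WT were compared within each population by edgeR 4.0.16 in R 4.3.3 (TMM, filterByExpr, quasi-likelihood test), with Benjamini-Hochberg adjustment over all genes tested. A gene was called at an FDR under 0.1. Standard errors were derived from the log2 change and its F statistic. WT populations were compared with the mouse as a block, because each number, taken as a mouse, occurred in all 3 precursor populations. Deviations of same-mouse libraries from their group means correlated at -0.0124 to 0.574. Libraries with adjacent numbers in WT and KO share no stated litter, and their block is an alternative. Alternatives were DESeq2 1.42.0, other size factors, a length offset, other filters, a joint fit and each library left out. Scripts were tested on simulated data. Replicates are the numbers in the sample titles, taken as mice. In the comparisons of KO with WT, p-values measure the spread between mice. In the fits with the mouse as a block, they measure the spread left after differences between mice are removed.

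The 10 genes and all lists were chosen with earlier results of these data known. From each other list at most 3 genes per population were named, those past the threshold with a mean above 1 TPM and the largest fold change. Of the listed genes, Csta2 and Ly76 had no match. Start regions and motifs were read from RefSeq (GRCm38.p6), with 10 of the 10 genes matched.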

Additional observations from a re-analysis of the deposited data

Results flagged for a closer look

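For S100a8, every KO library lay above WT in GMP (fitted log2 difference 2.15, in the contrast used for the choice) and below WT in MEP (-1.23), where it did not pass the test (edgeR, adjusted p = 0.12). The difference was not tested, because the GMP contrast was used in choosing the genes.

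Only genes named from the lists of granule, stefin, neutrophil maturation, regulator, S100, receptor and paralog genes were screened further, and the marker lists of other cells were not. Libraries separated in opposite directions between populations, untested, for 10 of these genes. The named genes were picked for large changes in single populations. The share of all genes that separated in this way is not given, so nothing is read from the count. The log2 changes in CMP and GMP were -2.23 and 0.543 for Ctsg, -0.298 and 0.935 for Lyz2, -1.38 and 0.322 for Mpo, -0.631 and 0.678 for Prss57, and -1.93 and 0.892 for Slpi. In CMP, GMP and MEP they were -0.438, 1.1 and -1.67 for Cyba, -0.486, 0.581 and -0.365 for S100a1, and -0.404, 0.573 and -0.888 for S100a11. In GMP and MEP they were 0.695 and -0.572 for Itgb2, and 0.967 and -0.527 for Srgn.

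The KO effect differed between MEP and CMP by the interaction test (edgeR, adjusted p under 0.1) for 14 of the same named genes. Of all genes 13.1% passed, but the named genes were picked for large changes in single populations, CMP and MEP among them. Their count can therefore not be compared with that share. Further genes of the lists passed, such as 10 of 12 erythroid and 7 of 8 megakaryocyte markers. The MEP effect minus the CMP effect was -1.2 for Cd63, -0.76 for Ctsc, -1.25 for Cyba, -1.68 for Itgam, -0.499 for Itgb2, -0.984 for Pecam1, -0.662 for Srgn and -2.34 for Timp2. It was 0.78 for Cebpd, 1.7 for Ctsg, 2.49 for Lrp1, 0.92 for Rxra, 0.421 for S100a13 and 0.514 for Stat3. None of the 10 late granule and S100 genes was among them.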

How the results depend on the processing

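Apart from leaving out 1 library, the alternatives kept direction and call in 90 of 99 results for the 10 genes in CMP, and in 48 of 50 for WT GMP against WT CMP. Other comparisons were less steady. In MEP 76 results kept both, 16 gained a call, 1 lost it and 3 reversed. In LT-HSC 57 kept both, 10 gained a call and 3 reversed. In GMP 86 kept both, 2 gained a call, 7 lost it and 5 reversed. For WT CMP against WT MEP 43 kept both, 2 gained a call and 5 lost it. In MEP the number of genes called lower was 1 in the reported fit, 4 without the filter for low counts, 2 with DESeq2, 2 with DESeq2 and a length offset, 2 with all 18 libraries in a joint fit, 3 without mice 304 and 305 and 0 without mice 304 and 300, and both of the last fits called 1 gene higher. In LT-HSC 8 of the 10 genes were called lower without the filter, where 286 of all genes were called in either direction. DESeq2 called 1 lower with the length offset (253 called of all genes) and 1 without it (248 called of all genes). The CMP and MEP effects differed for 1 gene without the filter. The causes of these shifts were not tested.

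With each library left out in turn, the numbers of genes called higher and lower were 0 to 1 and 4 to 8 in CMP, 3 to 7 and 0 to 1 in GMP, and 0 to 1 and 1 to 6 in MEP. No such numbers are given for LT-HSC, where these fits leave 1 library in a group. The numbers were 3 to 3 higher for WT GMP against WT CMP, 9 to 10 higher for WT CMP against WT MEP, and 0 to 1 lower for the difference between CMP and MEP. Directions turned for Mmp8 in CMP (-0.075 to 0.38), Cd177 (-0.69 to 0.51) and Ngp (-0.53 to 1.09) in GMP, Chil3 in MEP (-1.74 to 0.34) and Ngp between WT GMP and WT CMP (-0.093 to 0.11). In LT-HSC they turned for Camp (-2.07 to 5.96), Chil3 (-5.49 to 2.38), Fcnb (-3.76 to 3.79), Lcn2 (-2.67 to 3.17), Ltf (-2.57 to 4.18), Ngp (-2.63 to 2.03) and S100a8 (-2.48 to 0.40). In the difference between CMP and MEP they turned for Camp (-0.37 to 0.30), Lcn2 (-0.68 to 0.51) and Ngp (-0.24 to 0.73).

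Other reversals were Mmp8 in CMP (-0.047), and Cd177 (-0.94), Ngp (-0.90) and S100a9 (-0.12) in GMP without mice 304 and 305. Without mice 304 and 300 they were Cd177 in GMP (-0.24), and Camp (0.34), Chil3 (0.63) and Lcn2 (0.22) in MEP. Ngp between WT GMP and WT CMP was 0.0074 with median-of-ratios factors and 0.0078 with DESeq2.

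WT and KO libraries with adjacent numbers deviated together at -0.01 to 0.49, which does not establish that they were paired. With this replicate block, 6 genes were called lower and 1 higher in CMP as before, 1 lower and 5 higher in GMP, and 6 lower and 1 higher in MEP, Cd177 in GMP was -0.050, and Camp, Lcn2 and Ltf in LT-HSC were 1.43, 0.053 and 0.54. Without the mouse as a block, 4 genes were called higher in WT CMP than in WT MEP, and Lcn2 in the difference between CMP and MEP was 0.11. Depth limits the low genes: Fcnb in MEP rested on 1 to 72 counts, Mmp8 in MEP on 1 to 29 and Cd177 in KO CMP on 19 to 34.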
